A study of Caenorhabditis elegans with 2 samples.

Results

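The large subunit of the cytosolic ribosome of the nematode Caenorhabditis elegans is built from ribosomal RNA and proteins that are mostly encoded by genes with rpl- symbols. The genes described here are the protein-coding genes of the Ensembl annotation of assembly WBcel235 whose symbol starts with rpl-, which are 47 of 19973 protein-coding genes. Genes for mitochondrial ribosomal proteins, with mrpl- symbols, are a separate list. Regions were given to a gene by position alone: the summit of the region lay between 1000 bp upstream and 200 bp downstream of the annotated 5' end, called the promoter below. This rule uses no signal value.

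The study mapped the transcription factor ETS-4, tagged with GFP, on chromatin by chromatin immunoprecipitation with sequencing. There was 1 group of 2 biological replicates and no other condition. Both were whole young adults of 73 h and of mixed sex, from strain RAF1713, grown from L1 larvae that had been starved after bleaching. The strain carries the insertion rrrSi400 on chromosome II, which holds the ets-4 promoter, ets-4 joined to GFP, the ets-4 3' UTR and unc-119(+), and it carries unc-119(ed3) on chromosome III. The tagged protein is therefore an added copy under the promoter of its own gene, and the labels describe no change at the endogenous ets-4 gene. The labels name both eGFP and GFP-FLAG as the tag, and name anti-GFP in the description but ets-4 in the antibody field. Tissues were not separated, so binding in all cells and stronger binding in a few cannot be told apart. No precipitate from worms without the tag was analysed here, and the level of signal at rpl- promoters without tagged protein was not tested.

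The measurements are 4 lists of regions on build ce11: 1 of each replicate, 1 of the pooled replicates, each with 30000 candidate regions that include background, and the list of 1102 regions that the authors kept by their irreproducible discovery rate (IDR) threshold, here called IDR peaks. Each region has a signal value, which is the authors' deposited value from their peak caller and is compared within 1 list at a time. Rank 1 is the highest signal of a list. The strongest regions of a replicate are the 1102 regions with the highest signal in its own list, as many as there are IDR peaks. The number of reads behind each region is unknown. With a single group there is no contrast and no test between conditions, and neighbouring genes can share a region, so the counts below are descriptions.

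A ribosome needs each of its proteins in matching amounts, and genes for ribosomal proteins are among the most highly expressed genes of growing cells. ETS factors bind DNA through a winged helix-turn-helix domain that reads a GGAA core with its flanking bases. ETS-4 is known in worms for roles in lipid metabolism, lifespan and axon regeneration. Many worm mRNAs are trans-spliced to a leader RNA, so the annotated 5' end of a gene can lie downstream of the place where its transcription starts.

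Some short words were found in the DNA at the summits of several rpl- peaks, and 7 windows are printed to show which of them hold these words and which do not. Each is 101 bases long, with the summit in the middle, written 5' to 3' on the strand of the rpl- gene, from the RefSeq sequence of WBcel235. Capitals mark 5 words on either strand. They are TACGGT, which reads ACCGTA on the opposite strand, then CGAGTGT, then GCGTGTT, which reads AACACGC on the opposite strand, then GTCTCGC, which reads GCGAGAC, and TTTAGGC, which reads GCCTAAA. The words were picked after rpl- windows had been seen, and TTTAGGC was in a single window of the 10 rpl- peaks. The windows lie at chrIII:3867512-3867612 (+) for rpl-3, chrIII:7854633-7854733 (+) for rpl-35, chrIV:4750015-4750115 (-) for rpl-20, chrIV:654860-654960 (-) for rpl-15, chrX:2242959-2243059 (-) for rpl-11.2, chrIV:4390596-4390696 (-) for rpl-7A and chrIV:13240665-13240765 (-) for rpl-12. None overlapped an annotated UTR.
rpl-3: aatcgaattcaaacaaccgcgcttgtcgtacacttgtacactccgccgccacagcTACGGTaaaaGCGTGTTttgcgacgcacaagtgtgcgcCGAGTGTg
rpl-35: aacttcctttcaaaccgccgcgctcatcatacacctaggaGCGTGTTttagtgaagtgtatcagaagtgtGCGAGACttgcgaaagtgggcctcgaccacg
rpl-20: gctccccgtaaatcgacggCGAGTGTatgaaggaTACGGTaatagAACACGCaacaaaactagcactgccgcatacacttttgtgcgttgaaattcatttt
rpl-15: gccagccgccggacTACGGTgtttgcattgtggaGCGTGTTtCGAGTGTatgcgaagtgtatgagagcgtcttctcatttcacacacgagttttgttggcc
rpl-11.2: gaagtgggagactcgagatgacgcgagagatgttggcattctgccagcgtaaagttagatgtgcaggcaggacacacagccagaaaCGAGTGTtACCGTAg
rpl-7A: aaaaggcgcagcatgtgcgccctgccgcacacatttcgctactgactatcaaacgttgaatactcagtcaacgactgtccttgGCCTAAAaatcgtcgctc
rpl-12: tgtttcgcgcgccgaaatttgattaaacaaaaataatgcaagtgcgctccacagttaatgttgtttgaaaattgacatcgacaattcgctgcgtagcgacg
The windows of rpl-3, rpl-20 and rpl-15 each hold TACGGT and CGAGTGT and GCGTGTT, in different orders and spacings. That of rpl-35 holds GCGTGTT and GTCTCGC, that of rpl-11.2 holds CGAGTGT and TACGGT, that of rpl-7A holds TTTAGGC, and that of rpl-12 holds none of the 5. Of the windows not printed, those of rpl-41.2 and rpl-14 hold GTCTCGC and that of rpl-1 holds none of the 5. All of those not printed hold the ETS core GGAA, which among the printed windows is in that of rpl-35 only.

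Of the rpl- genes, 10 of 47 had an IDR peak in the promoter (21.3%, 95% Wilson interval 11.99 to 34.9%), where 2.59% of all protein-coding genes had one. These are rpl-3, rpl-35, rpl-20, rpl-15, rpl-1, rpl-7A, rpl-11.2, rpl-12, rpl-41.2 and rpl-14. A pooled candidate region of any strength lay in 39 of 47 rpl- promoters (83.0%, interval 69.9 to 91.1%), where 34.5% of all genes had one. Over the 39 genes the best pooled signal had a median of 43.5, with quartiles of 31.3 and 80.1, and over the 6891 genes of the whole annotation with a candidate it was 34.5, with quartiles of 27.3 and 47.9. By list membership, the rpl- genes were 10 with an IDR peak, 29 with a weaker pooled candidate and 8 with none. Pooled ranks of the 39 genes with a candidate ran from 5 at rpl-3 to 27156 at rpl-6. Intervals cover counting error over genes and treat genes as independent, although neighbours can share a region.

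**Figure D1:**
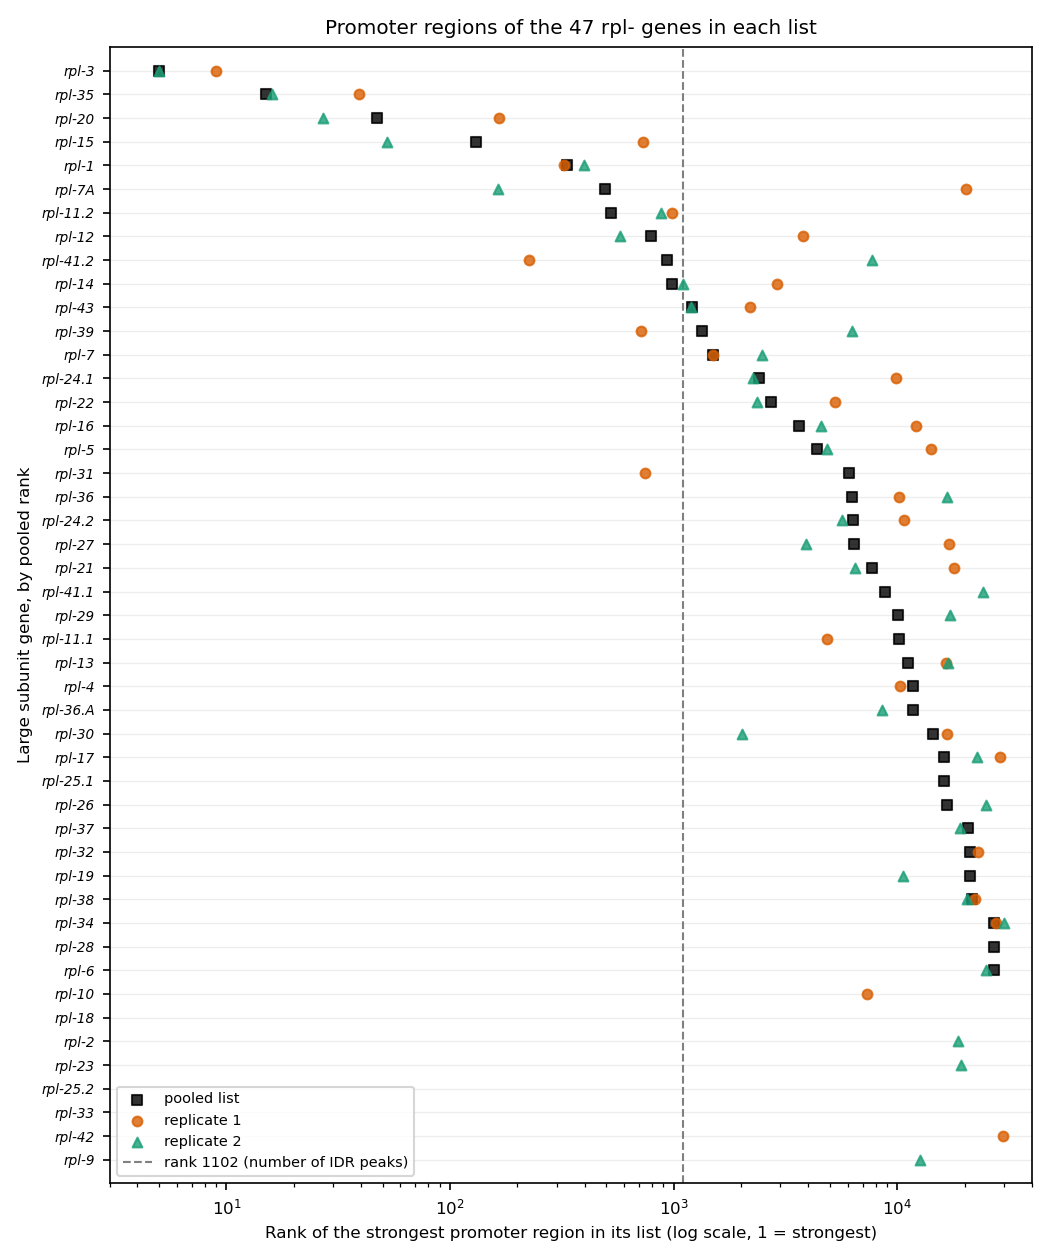
Rank of the strongest promoter region of each of the 47 rpl- genes in the pooled list (squares), replicate 1 (circles) and replicate 2 (triangles), on a log scale on which 1 is the highest signal; the dashed line is rank 1102, the number of IDR peaks. The 10 genes at the top lie left of the line in the pooled list, and the 8 genes at the bottom have no pooled candidate.

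Among the proteins at the functional centre of the subunit, rpl-3 stands first. Its protein reaches towards the peptidyl transferase centre, where peptide bonds are made, and in worms the gene also yields an unproductively spliced mRNA that nonsense-mediated decay removes. Chromosome III held its IDR peak at 3867457 to 3867689, and the summit was at -292 bp relative to the 5' end. Its signal was 139.5 in replicate 1 (rank 9), 207.5 in replicate 2 (rank 5) and 346.1 in the pooled list (rank 5). Both replicates thus had it among their 10 highest regions. The summits of the replicates were -14 and 1 bp from the pooled summit. No other gene of any type overlapped the region.

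The gene rpl-3 was also the single rpl- gene with an IDR peak in its body beyond the promoter, where 357 of all genes (1.79%) had one. That region lay in an exon at 3869297 to 3869666, with its summit 1628 bp downstream of the 5' end and near the 3' end of a gene of 1734 bp. Its signal was 56.8 in replicate 1 (rank 244), 78.0 in replicate 2 (rank 260) and 128.2 in the pooled list (rank 249). The ranks of the 3 lists are close to each other, and the signal was below that of the promoter peak in each list.

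Around the tunnel through which the new peptide leaves the subunit, rpl-35 had the second strongest rpl- peak. RPL35 is one of the proteins at the tunnel's outer opening. The region on chromosome III at 7854615 to 7854786 was 172 bp wide and had its summit at -451 bp, the farthest upstream of the 10. Its signal was 87.2 in replicate 1 (rank 39), 149.9 in replicate 2 (rank 16) and 237.8 in the pooled list (rank 15). RPL39 lines the tunnel wall, and rpl-39 had signals of 41.8 in replicate 1 (rank 715), 28.2 in replicate 2 (rank 6245) and 74.5 in the pooled list (rank 1334). Its summit at -291 bp lay nearer to the small subunit gene rps-30, at -208 bp, and inside the noncoding RNA genes C26F1.13 and C26F1.14. RPL31 is another protein of the tunnel opening, and the rpl-31 promoter held a summit in replicate 1 (41.4, rank 747) and in the pooled list (44.2, rank 6054), the latter 95 bp inside the gene. Replicate 2 had no summit within the promoter limit. Just beyond it, at 294 bp, a stronger pooled summit (62.4, rank 2205) belonged to a region that overlapped the same replicate 1 region and a region of replicate 2 (28.7, rank 5922).

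The next 2 peaks belonged to rpl-20 and rpl-15, the latter encoding a protein of the core of the subunit that is in close contact with ribosomal RNA. At rpl-20 the region on chromosome IV at 4749992 to 4750175 had signals of 63.2 in replicate 1 (rank 166), 136.2 in replicate 2 (rank 27) and 200.0 in the pooled list (rank 47). Its summit was at -287 bp from rpl-20 and nearer, at -175 bp, to the divergent gene Y17G9B.5, so position does not decide between the pair. At rpl-15 the region on chromosome IV at 654862 to 655015 had signals of 41.6 in replicate 1 (rank 730), 118.1 in replicate 2 (rank 52) and 153.7 in the pooled list (rank 131). The summit at -334 bp also fell in the promoter of the divergent gene K11H12.8. Both regions were ranked better by replicate 2, and in each the replicate summits were within 36 bp of the pooled one.

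The protein of rpl-1 forms the L1 stalk, which moves spent transfer RNA out of the ribosome. Its region on chromosome I at 2876537 to 2876906 had signals of 52.0 in replicate 1 (rank 324), 69.5 in replicate 2 (rank 399) and 118.1 in the pooled list (rank 333), with the summit at -414 bp from rpl-1, at -210 bp from the nearer gene Y71F9AL.9, and in an exon of the noncoding RNA gene Y71F9AL.20. The 3 ranks are alike. RPL12 sits at the base of the other stalk, where translation factors bind, and rpl-12, like rpl-3, yields an mRNA that nonsense-mediated decay removes in worms. Its region on chromosome IV at 13240530 to 13240899 had signals of 26.3 in replicate 1 (rank 3776), 62.2 in replicate 2 (rank 575) and 90.2 in the pooled list (rank 791). The summit at -64 bp also fell in the promoter of lin-54, which encodes the DNA-binding subunit of the DREAM repressor complex.

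RPL11 and RPL5 bind 5S ribosomal RNA together. At rpl-11.2 the region on chromosome X at 2242824 to 2243193 had signals of 38.2 in replicate 1 (rank 986), 54.3 in replicate 2 (rank 873) and 103.8 in the pooled list (rank 523), with the summit at -391 bp. It overlapped the noncoding RNA genes AH9.7 and linc-78. At rpl-5 there was a weaker region outside the IDR list, with signals of 16.9 in replicate 1 (rank 14200), 30.6 in replicate 2 (rank 4865) and 49.3 in the pooled list (rank 4363). Its summit was at -457 bp from rpl-5 and nearer, at -382 bp, to the collagen gene col-38. The partners in 5S binding thus did not share an IDR peak.

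The remaining 3 regions of the IDR group, which are not the 3 of lowest signal, included the largest gaps between replicates. At rpl-7A, on chromosome IV at 4390461 to 4390830, the signal was 14.4 in replicate 1 (rank 20358), 89.1 in replicate 2 (rank 163) and 105.9 in the pooled list (rank 491). Replicate 1 held it in the lower part of its list, and replicate 2 among its strongest regions. The summit at -56 bp lay between rpl-7A and the divergent gene set-21. In the genome, 57 of the 72 words of 30 bases in its window occur once, whereas all 72 do so in the windows of the other 9 peaks.

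The opposite gap was seen at rpl-41.2, on chromosome I at 4789835 to 4790204, which encodes RPL41, the smallest protein of the ribosome. There the signal was 58.5 in replicate 1 (rank 225), 26.4 in replicate 2 (rank 7701) and 85.0 in the pooled list (rank 929), with the summit at -272 bp. At rpl-14, on chromosome I at 9688696 to 9689065, the signal was 28.3 in replicate 1 (rank 2899), 49.7 in replicate 2 (rank 1099) and 83.1 in the pooled list (rank 986), with the summit at -316 bp. This was the rpl- gene just inside the IDR list, whose lowest signal was 79.4. The gene just outside was rpl-43 at 77.1 (rank 1204). At each rpl- IDR peak the rank by signal in the IDR list equalled its rank in the pooled list. Down to rank 986, membership of the IDR list thus followed pooled signal. It does not mean a high rank in each replicate.

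**Figure D2:**
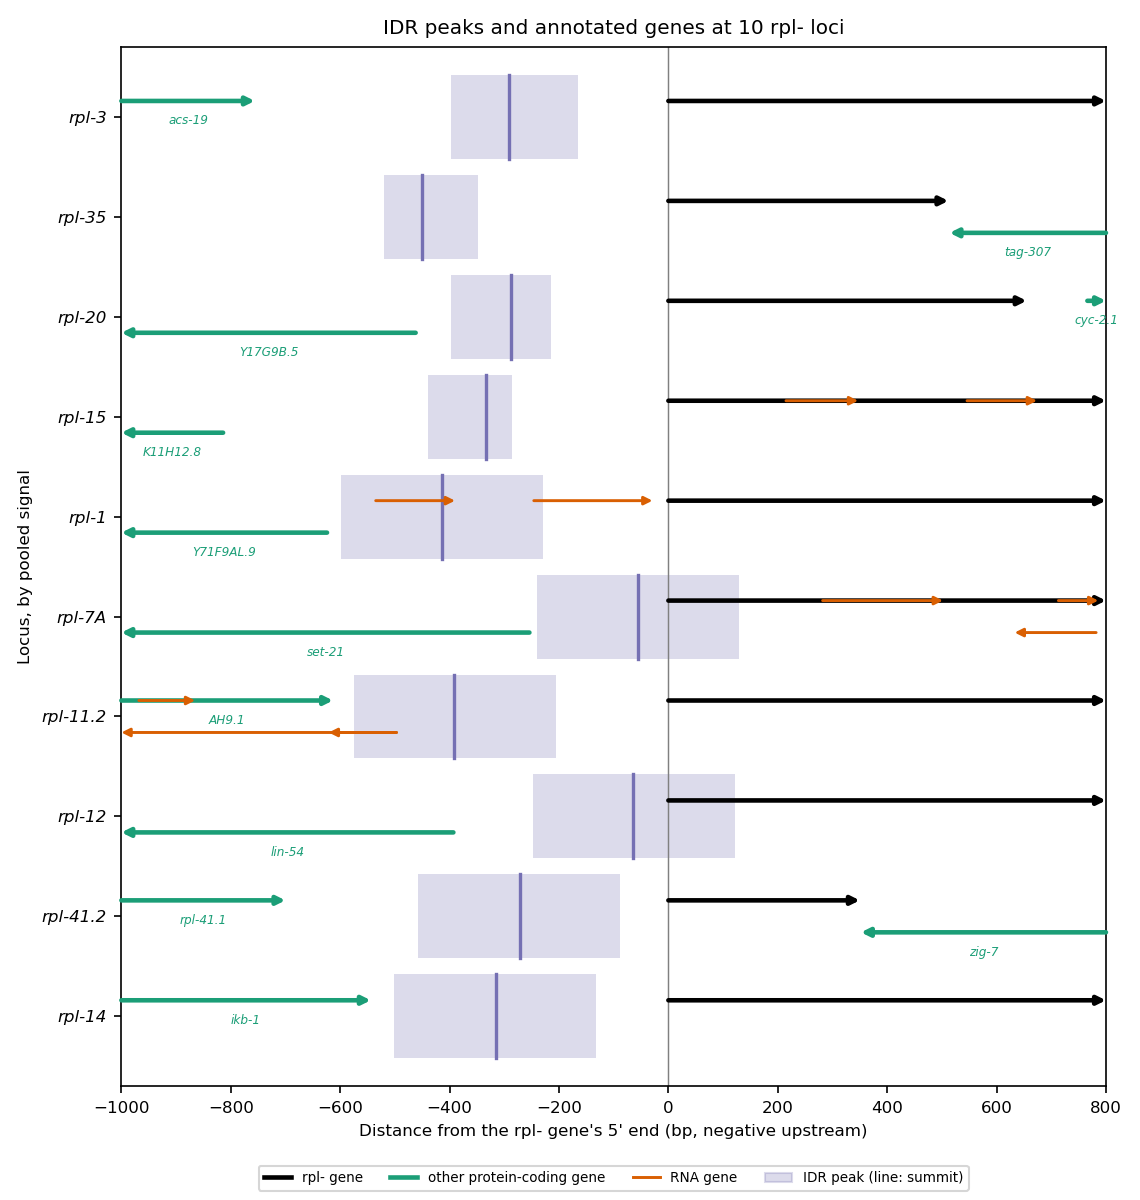
Map of the 10 rpl- loci with an IDR peak, aligned at the 5' end of the rpl- gene and drawn in its direction, with distance in bp on the x axis, shaded IDR peaks with a line at the summit, rpl- genes in black, other protein-coding genes in green and RNA genes in orange. All 10 summits lie upstream, 8 of them between -500 and -250 bp, and those of rpl-7A and rpl-12 lie at -56 and -64 bp.

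The rpl- peaks were next compared with the list of each replicate, with all promoter IDR peaks beside them. The strongest regions of both replicates overlapped 6 peaks, those of rpl-3, rpl-35, rpl-20, rpl-15, rpl-1 and rpl-11.2, which is 12.8% of the 47 genes where 1.49% of all genes had such a peak. Replicate 2 alone overlapped rpl-7A, rpl-12 and rpl-14, and replicate 1 alone overlapped rpl-41.2. The 6, 3 and 1 of 10 stand beside 56.1% in both, 27.4% in replicate 2 alone and 12.4% in replicate 1 alone of the 435 promoter IDR peaks. Of the 10 peaks, 8 had a better rank in replicate 2, with median ranks of 527 in replicate 1 and 281 in replicate 2. Among all promoter IDR peaks present in both lists, 238 of 433 (55.0%) ranked better in replicate 2, with medians of 581 and 512. Read from each replicate's own list, 9 rpl- promoters (19.1%) held one of its strongest regions in replicate 1, where 2.39% of all genes did, and 9 did in replicate 2, where 2.63% of all genes did. The 9 of replicate 1 were 7 of the IDR genes with rpl-31 and rpl-39, and the 9 of replicate 2 were all IDR genes except rpl-41.2.

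**Figure D3:**
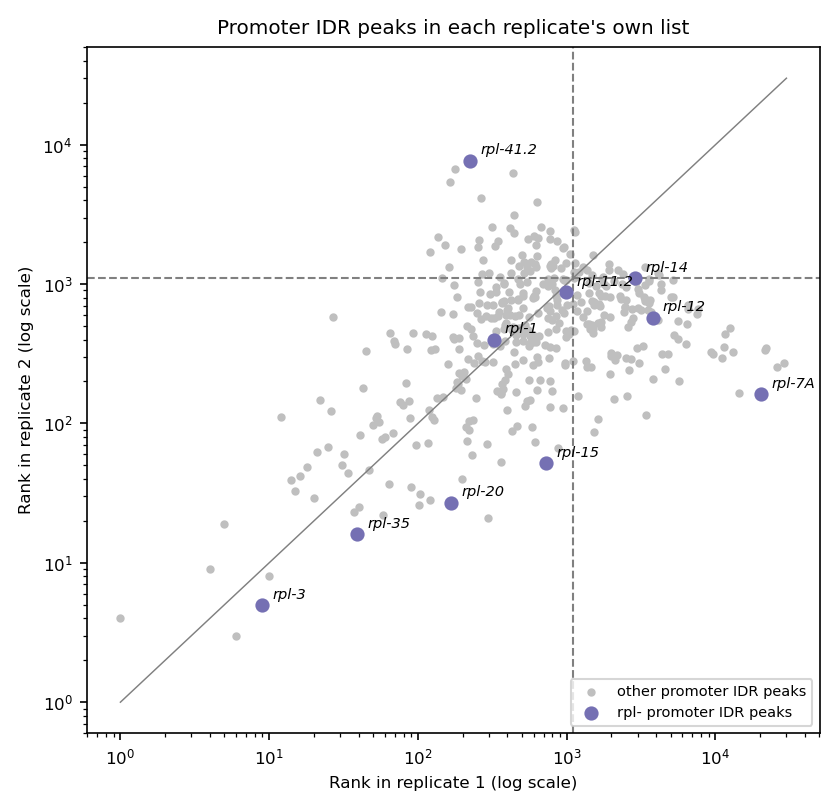
Rank of each promoter IDR peak in replicate 1 (x axis) and replicate 2 (y axis), both on log scales, with rpl- peaks in purple and the others in grey; the line marks equal ranks and the dashed lines mark rank 1102. Of the 10 rpl- peaks 8 lie below the line of equal ranks, and rpl-7A and rpl-41.2 lie farthest from it.

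The strongest rpl- peaks were narrow. The usual width of a region was 370 bp, and rpl-3 (233 bp), rpl-35 (172 bp), rpl-20 (184 bp) and rpl-15 (154 bp) were narrower. These 4 of 10 (40.0%) compare with 35 of the 435 promoter IDR peaks (8.05%). They were also the 4 rpl- peaks with the highest signal. Of the promoter IDR peaks of small subunit (rps-) genes, 1 of 5 was narrower, that of rps-19 (pooled rank 128). The peak of the elongation factor gene iff-2 (pooled rank 16) was also narrower, and those of eef-1B.1, eef-1A.2 and eef-1G had the usual width. Both narrower peaks had the highest signal of their gene list. Peaks of matching signal were not compared, so a link of width to rpl- genes apart from signal was not tested.

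Positions of the rpl- IDR summits were concentrated upstream. The 10 distances ran from -451 to -56 bp with a median of -304 bp and quartiles of -376.8 and -275.8 bp. Between -500 and -250 bp lay 8 of 10 (80.0%), where 130 of 518 genes with a promoter IDR peak (25.1%) had their summit in that interval, and the median of those 518 was -244 bp. The interval was chosen with these distances known. In the rps- genes, which encode the small subunit, 3 of 5 IDR summits (60.0%) and 8 of the 17 summits of weaker candidates (47.1%) lay in it, and none lay downstream. None of the rpl- IDR summits lay downstream of the 5' end or beyond -500 bp. Of the 518 genes, 7.53% had a downstream summit and 23.9% had one beyond -500 bp. In the 29 rpl- genes with a pooled candidate outside the IDR list the distances were spread from -988 to 179 bp with a median of -260 bp. In these, 8 summits (27.6%) lay between -500 and -250 bp, 8 (27.6%) lay inside the gene and 7 (24.1%) lay beyond -500 bp. Over all 6373 genes with such a candidate, 19.1% lay in the interval, 19.1% downstream and 36.25% beyond -500 bp. The summits of the weaker candidates were thus spread over the whole promoter, in rpl- genes and in all genes.

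**Figure D4:**
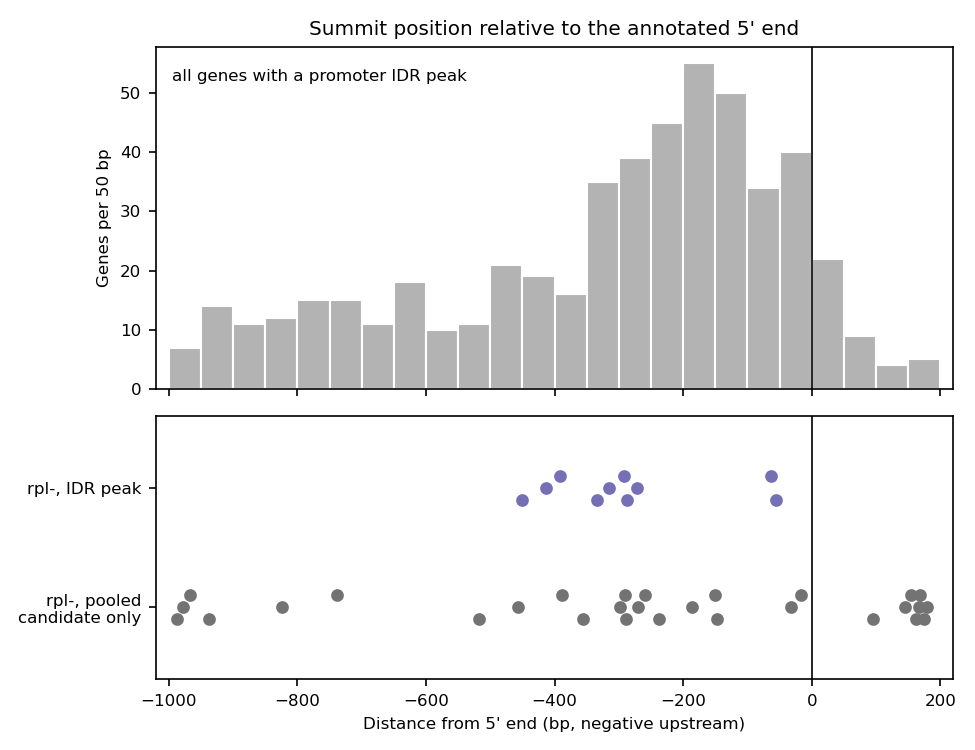
Distance in bp from a summit to the annotated 5' end, negative upstream: above, the number of genes per 50 bp for all genes with a promoter IDR peak; below, 1 point per rpl- gene with an IDR peak (purple, 10) or with a pooled candidate outside the IDR list (grey, 29), with no meaning to their height. The purple points have a median of -304 bp and the grey points reach from -988 to 179 bp.

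Of the rpl- genes outside the IDR list, several of the strongest candidates lay in a region that also fell in a neighbour's promoter. At rpl-43 the signal was 30.6 in replicate 1 (rank 2199) and 48.4 in replicate 2 (rank 1194), and the summit at -738 bp lay nearer to Y48B6A.1, at -183 bp. At rpl-7 it was 33.7 in replicate 1 (rank 1505), 38.3 in replicate 2 (rank 2469) and 71.7 in the pooled list (rank 1505), with the summit at -355 bp in the noncoding RNA genes F53G12.15 and F53G12.16 and in the promoter of rab-11.1, which encodes a small GTPase of recycling endosomes. RPL24 takes part in a bridge between the subunits, and at rpl-24.1 the values were 19.4 in replicate 1 (rank 9835), 39.5 in replicate 2 (rank 2268) and 60.5 in the pooled list (rank 2406), at -289 bp in a promoter shared with rps-10. The genes rpl-43 and rpl-39 were the 2 rpl- genes outside the IDR list whose region was at the highest q value step of the pooled list. That step was reached at 12 of 47 rpl- genes and by 1393 of the 30000 pooled regions. The share of all genes that reached it was not counted.

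At rpl-22 the signal was 23.9 in replicate 1 (rank 5249), 39.0 in replicate 2 (rank 2358) and 57.9 in the pooled list (rank 2730), with the summit at -238 bp, nearer to the securin gene ify-1 at -199 bp. At rpl-16 it was 18.0 in replicate 1 (rank 12152), 31.2 in replicate 2 (rank 4572) and 52.5 in the pooled list (rank 3645), with the summit at -147 bp in an exon of lias-1. At rpl-36 it was 19.1 in replicate 1 (rank 10222), 19.6 in replicate 2 (rank 16717) and 43.7 in the pooled list (rank 6266), with the summit at -978 bp in an exon of rps-14. In 12 of the 39 genes the summit lay nearer to the 5' end of another gene, which was the case in 2 of the 10 with an IDR peak and 10 of the 29 without. The matching share over all genes with a candidate was not counted. A divergent 5' end within 1000 bp upstream was present in 28 of 47 rpl- genes and in 17.7% of all genes.

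No pooled candidate lay in the promoters of 8 of the 47 genes. Those of rpl-18, rpl-25.2 and rpl-33 had none in either replicate. Those of rpl-10 (21.5, rank 7333) and rpl-42 (11.7, rank 29679) had one in replicate 1, and those of rpl-2 (18.6, rank 18682), rpl-9 (22.1, rank 12562) and rpl-23 (18.4, rank 19242) had one in replicate 2. All 5 were far below the strongest regions, and none was in both replicates. Past the promoter limit of 200 bp, 5 of the 8 genes held a pooled summit in the gene, where 47.4% of all genes did. Some lay just past it: rpl-33 at 306 bp (43.9, rank 6181), rpl-10 at 253 bp (31.2, rank 15403) and rpl-23 at 247 bp (22.8, rank 27850). Each list stops at 30000 regions, and signal below the lowest listed region is not known.

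Genes whose symbols share a number had different values, and whether both genes of a pair encode the same protein was not examined. In the pair rpl-11.1 and rpl-11.2, the IDR peak was at rpl-11.2 (103.8), while rpl-11.1 had a pooled region of 36.8 (rank 10202) at -938 bp in an exon of T22F3.2 that was in the list of replicate 1 (24.4, rank 4823) and not in that of replicate 2. In the pair rpl-41.1 and rpl-41.2, tandem neighbours on chromosome I, the IDR peak lay between the genes, upstream of rpl-41.2, and rpl-41.1 had a pooled region of 38.8 (rank 8847) at -16 bp, absent from replicate 1 and at rank 24094 in replicate 2 (16.4). The genes rpl-24.1 and rpl-24.2 both lacked an IDR peak, with pooled signals of 60.5 and 43.5. For rpl-24.2 the signal was 18.9 in replicate 1 and 29.2 in replicate 2, at -151 bp. An IDR peak was also absent from rpl-25.1, with a pooled signal of 30.4, and from rpl-25.2, without a pooled candidate. In 2 further pairs the shared number stands for different proteins: rpl-7A (105.9) with rpl-7 (71.7), and rpl-36 (43.7) with rpl-36.A (34.9). In no pair did both genes have an IDR peak.

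Gene structure and neighbours, which the rule did not use, were counted for the genes with and without an IDR peak. The median gene length was 898 bp in the 10 with an IDR peak, 663 bp in the 29 with weaker candidates and 772.5 bp in the 8 without. A divergent 5' end within 1000 bp upstream was present in 5 of 10, 18 of 29 and 5 of 8, in all 28 of 47 rpl- genes, where 17.7% of all genes had one. A 3' end on the same strand within 500 bp upstream, as in an operon, was present in 4 of 47 rpl- genes and in none of the 10, where 18.1% of all genes had one. By chromosome, the 10 were 4 of 7 rpl- genes on IV, 3 of 15 on I, 2 of 9 on III and 1 of 2 on X, with 0 of 9 on II and 0 of 5 on V. The shares of all genes on each chromosome were not counted, and a difference between chromosomes was not tested. Small RNA genes inside the rpl- gene were annotated in 2 of 10, 5 of 29 and 1 of 8, and the share over all genes was not counted. None of the 10 peaks overlapped a small RNA gene, which 43 of the 435 promoter IDR peaks (9.89%) did, and 2 overlapped another noncoding RNA gene, which 85 of the 435 (19.5%) did.

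Weaker regions lay in the bodies of rpl- genes as well. Beyond 200 bp from the 5' end, 26 of the 47 genes held 35 pooled regions, where 47.4% of all genes held at least 1. The rpl- genes are shorter, with a median length of 753 bp against 2027 bp over all genes, and the part of length in this share was not tested. After the exonic peak of rpl-3, the highest were in rpl-12 (75.9, rank 1264), rpl-19 (73.8, rank 1377), rpl-9 (72.7, rank 1435) and rpl-4 (69.9, rank 1616). In rpl-9, which had no pooled region in its promoter, the body region had signals of 47.4 in replicate 1 (rank 448) and 40.2 in replicate 2 (rank 2158). In rpl-19 they were 45.5 in replicate 1 (rank 530) and 23.7 in replicate 2 (rank 10454). None of these 4 was an IDR peak.

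Among words known for transcription factors, searched on both strands in the 101 bases at each summit, the ETS core GGAA was found in 4 of the 10 rpl- IDR windows, those of rpl-35, rpl-1, rpl-41.2 and rpl-14. It was found in 230 of the 435 promoter IDR windows (52.9%), in 612 of all 1102 IDR windows (55.5%), and in 62.8% of windows of the same length centred at -304 bp of every protein-coding gene. The longer ETS words CCGGAA and CCGGAT and CAGGAA, of which the first and last contain GGAA, were in 0 of 10, and in 41, 18 and 45 of the 1102. TGATAA, a word bound by GATA factors, was in 1 of 10, that of rpl-1, and in 298 of the 1102 (27.0%). Which protein was present at windows without these words was not tested. The mean GC content was 50.9% in the rpl- IDR windows, 47.3% in all promoter IDR windows, 44.0% in the windows of the 29 weaker rpl- candidates and 34.4% in the same-length windows of all genes, and its part in the word counts was not tested.

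The capitalised words were picked after rpl- windows had been seen, so their counts in rpl- windows are a description of that choice. TACGGT was in 4 of the 10 rpl- IDR windows, 6 of the 29 weaker rpl- windows, 27 of 435 promoter IDR windows (6.21%) and 3.03% of the same-length windows of all genes. CGAGTGT was in 4 of 10, 5 of 29, 14 of 435 (3.22%) and 0.536%. GCGTGTT was in 4 of 10, 0 of 29, 15 of 435 (3.45%) and 0.656%. GTCTCGC was in 3 of 10, 4 of 29, 19 of 435 (4.37%) and 0.906%, and TTTAGGC in 1 of 10, 1 of 29, 2 of 435 (0.460%) and 1.28%. No match of one of these words shared a base with a match of another in the printed windows.

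Across the 600 bp upstream of the 5' ends, the words were also found in rpl- genes without an IDR peak. TACGGT was present in 6 of the 10 genes with an IDR peak and 19 of the 37 without, in all 25 of 47, with a median position of -303 bp, where 16.3% of all genes had it. GTCTCGC was present in 3 of 10 and 13 of 37 with a median position of -292 bp (4.64% of all genes), and TTTAGGC in 6 of 10 and 12 of 37 with a median of -207 bp (6.92% of all genes). CGAGTGT was present in 5 of 10 and 7 of 37 (3.12% of all genes), and GCGTGTT in 4 of 10 and 3 of 37 (4.28% of all genes). The words were picked after rpl- windows had been seen, so the counts in rpl- genes with and without an IDR peak are not independent of that choice. In the 31 genes of the small subunit, with rps- symbols, TACGGT was upstream of 11, GTCTCGC of 10, TTTAGGC of 12, CGAGTGT of 5 and GCGTGTT of 0.

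The closest related genes are those of the small subunit. An IDR peak lay in 5 of 31 rps- promoters (16.1%, interval 7.09 to 32.6%), those of rps-19 (154.4), rps-18 (105.2), rps-1 (102.0), rps-26 (89.3) and rps-28 (87.7), and a pooled candidate in 22. The intervals of the rpl- and rps- shares overlap widely, and the difference was not tested. The highest rps- signal lay below those of rpl-3, rpl-35 and rpl-20 and just above that of rpl-15. In 3 of the 5 rps- genes the summit lay nearer to the 5' end of another gene (hsr-9, sec-61.A and tmem-107), as it did in 2 of the 10 rpl- genes.

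Other genes of ribosomes and translation ranged from 0 of 6 to 4 of 8 with an IDR peak, beside 2.59% of all genes. Their lists were drawn up by function, with earlier results of these data known. Mitochondrial large subunit genes had an IDR peak in 1 of 41 promoters, that of mrpl-23, and a pooled candidate in 17 (41.5%). The stalk, ubiquitin-fused and associated ribosomal protein genes rla-0, rla-1, rla-2, ubl-1, ubq-2 and rack-1 had an IDR peak in 0 of 6 (upper Wilson limit 39.0%) and a candidate in 3. Ribosome biogenesis genes had an IDR peak in 0 of 12 (upper limit 24.2%) and a candidate in 7. Elongation factor genes had an IDR peak in 4 of 8: iff-2 (237.0), eef-1B.1 (111.9), eef-1A.2 (100.5) and eef-1G (83.4), with summits at -61, -6, -425 and 1 bp. In 3 of these 4 the summit lay close to the 5' end, as at rpl-7A (-56 bp) and rpl-12 (-64 bp), while the other 8 rpl- IDR summits lay between -500 and -250 bp.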

How the data were processed

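Per the labels and the text files deposited beside the lists, each replicate's list came from its own alignments with a control, a pooled list was made from both, and the IDR list was derived from all of these, on build ce11. The signal value and the −log10 q value of each region were used as the authors deposited them, without scaling between lists. The aligner, peak caller, IDR threshold and read numbers were not given in the sources used here, so depth and the precision it gives are unknown. Nothing states how the replicates were grown beyond the label biological replicate.

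Summits were placed at their 1-based position and compared with Ensembl release 115 of WBcel235, the same assembly. The last regions of all 6 chromosomes ended within the reference lengths. Counts of genes with a region in the promoter were made over all 19973 protein-coding genes and each gene list, with 95% Wilson intervals. Other counts carry no interval, and not all of them were made over all genes. Word searches used 50 bp to each side of a summit, or 600 bp upstream. Tools were Python 3.11.15 with pandas 2.3.3, numpy 2.4.6, scipy 1.17.1 and, for plots, matplotlib 3.10.9, and the assignment of summits, overlaps and words was tested on simulated data.

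Named were the rpl- genes with an IDR peak, the 10 next by pooled signal, those without a candidate, those within 1.5 times the lowest IDR rank, those sharing a number, and neighbours that share a region. Further genes were named with a body region or as list members with an IDR peak. The members and lists were chosen with earlier results of these data known. Of the biogenesis list, nol-1 had no match. Alternatives changed the promoter limits, the 5' end, the number of IDR peaks, the replicates, the overlap and the word window. No test between conditions was made, because there is 1 group.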

Additional observations from a re-analysis of the deposited data

How the results depend on the processing

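The count of 10 rpl- genes with an IDR peak (2.59% of all genes) was 10 with promoters of 500 bp upstream to 100 bp downstream (1.93% of all genes) and of 2000 to 500 bp (3.90%), 8 by the nearest 5' end (2.13%) and 7 in the IDR peaks of the higher signal range (1.44%), and read from 1 replicate's strongest regions it ranged from 9 to 9. It was 6 for peaks in the strongest regions of both replicates (1.49%), an alternative added after the data were seen. The rps- count of 5 was 3 with the 500 to 100 bp promoter, 2 by the nearest 5' end, 2 in the higher signal range and 3 in both replicates, and ranged from 5 to 5 by replicate, against the same shares of all genes. Pooled candidates fell to 25 of 47 rpl- genes with the 500 to 100 bp promoter (21.0% of all genes). With the 2000 to 500 bp promoter they rose to 43 of 47 (53.5% of all genes). Read from the list of replicate 1 the count was 32 (33.6% of all genes), and from that of replicate 2 it was 36 (35.2%). The median best signal of 43.5 was 60.5 with that promoter and 43.9 with the 2000 to 500 bp one, where different regions are counted. The median distance of -304 bp was -315.5 bp from the start codon and -334 bp in the higher signal range. An ETS word was in 2 of 10 windows of 25 bp to each side and 7 of 10 of 100 bp, against 4 (in all IDR peaks 33.2%, 81.5% and 55.7%). No paired analysis was possible because there is 1 group and no contrast. Depth is unknown, so the error of a region's signal and the reads behind the gaps at rpl-7A and rpl-41.2 cannot be given.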
